A study of Homo sapiens with 9 samples.

Results

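The comparison set the array of an EZH2 siRNA without a number in its title (called the unnumbered siRNA, 1 array) directly against EZH2 siRNA no.2 (2 arrays) in A673 cells. These 3 arrays, of 9 in all, were taken by their titles, and no control siRNA array entered the contrast. A673 cells are an established line from a Ewing sarcoma and express the EWS/FLI fusion. Cells were resuspended in medium with 5 nM siRNA and transfection reagent and held for 48 hours, and RNA was read on human U133A arrays. The other 6 arrays came from cells given a control siRNA in the same way (2 arrays), 100 nM trichostatin A (TSA, a histone deacetylase inhibitor) for 24 hours (2) or its solvent, 0.01% DMSO, for 24 hours (2), and they are given here as context. All samples share the one cell line. Replicates are called biological in the titles, without a statement that they were separate cultures, so the spread given here may be technical. With 1 array on one side the comparison is a description, and a probe set was counted as different only where the unnumbered siRNA lay at least 2-fold from both no.2 arrays.

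EZH2 is the enzyme of Polycomb repressive complex 2 (PRC2) that methylates histone H3 at silenced genes. An siRNA is loaded into an Argonaute protein, which cuts the mRNA that matches it, and its seed can also lower transcripts with partial matches. Reagents against one gene therefore share the intended target while their other targets may differ. The sequences of these siRNAs were not used here.

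EZH2 was measured by 1 probe set, and its signal was lower on all 3 EZH2 siRNA arrays than on any other array. The signal was 681 with the unnumbered siRNA, against 572 and 271 on the replicate 1 and 2 arrays of no.2. It was 1130 and 1172 with the control siRNA, 990 and 861 in DMSO and 1257 and 1055 in TSA. The unnumbered siRNA thus lay above both no.2 arrays and below the 6 arrays without an EZH2 siRNA. On the scale of log2(signal + 25.1), the unnumbered siRNA was 0.75 above the mean of no.2 (SE 0.40 from limma), 0.24 above replicate 1 and 1.26 above replicate 2. The no.2 arrays themselves were 1.01 apart, so the difference between the siRNAs in EZH2 was smaller than the distance between the no.2 replicates. An array reads RNA pooled over cells, so fewer cells with EZH2 mRNA and less of it per cell cannot be told apart.

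The unnumbered siRNA was no further from no.2 replicate 1 than replicates were from each other. Of 15558 probe sets tested, 504 (3.24%) were at least 2-fold apart between the unnumbered siRNA and no.2 replicate 1, and 1034 (6.65%) between it and replicate 2. The no.2 replicates differed by that much at 1054 (6.77%), the control siRNA replicates at 1308 (8.41%), the DMSO replicates at 913 (5.87%) and the TSA replicates at 1596 (10.3%). Every replicate pair was further apart than the unnumbered siRNA and no.2 replicate 1, but some arrays of different treatments were about as close. Among the replicate 2 arrays, DMSO and TSA differed at 380 (2.44%), no.2 and TSA at 425 (2.73%) and no.2 and DMSO at 526 (3.38%). All other pairs of different treatments among the other groups were further apart. The 3.24% therefore does not by itself show that the siRNAs are alike. The hybridisation controls, RNAs added at known amounts before hybridisation, moved with the replicate number: their mean log2 signal over 18 probe sets was 9.80 with the unnumbered siRNA, 9.81 on no.2 replicate 1 and 10.53 on replicate 2. Medians of gene lists are therefore also given against each no.2 array. The 3' to 5' ratio of ACTB, a sign of RNA integrity, was 1.26, 1.04 and 1.24 in the same order. The Ewing sarcoma marker CD99 was bright on all 3 arrays (16555, 14840 and 17842), while the epithelial CDH1 (24.7, 8.98 and 5.12) and the blood cell marker PTPRC (19.5, 25.9 and 28.7) were dim. Of 9 epithelial markers 2 passed the filter on dim probe sets, KRT18 (7403, 7109 and 7416) and KRT8 (220, 203 and 199.5). Of 10 blood cell markers 4 passed it, among them HBB (211, 164 and 216) and CD3E (143, 49.3 and 166). The part of other cells in the results was not tested.

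**Figure D1:**
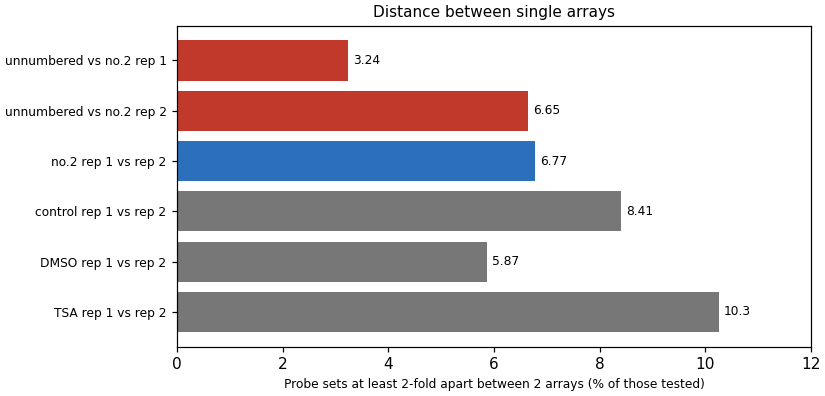
Share of the 15558 probe sets at least 2-fold apart between 2 single arrays (x axis, percent), for the unnumbered EZH2 siRNA against each no.2 array (red), the no.2 replicates (blue) and the replicate pairs of the other groups (grey). The bar for the unnumbered siRNA and no.2 replicate 1 (3.24%) is the shortest, and that against replicate 2 (6.65%) is close to the no.2 replicate pair (6.77%).

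Across all probe sets, few lay apart between the siRNAs, and most of those were dim. Of 15558 tested, 30 (0.193%) were at least 2-fold above both no.2 arrays and 131 (0.842%) at least 2-fold below both. Of the lower ones, 114 were among the dimmest 5186 of the probe sets tested and 1 among the brightest 5186. Of the higher ones, 22 were among the dimmest 5186 and 4 among the brightest. The unnumbered siRNA lay outside all 8 other arrays at 19 of the 30 and at 99 of the 131, against 20.03% of all probe sets tested, but these sets were taken for lying outside 2 of the 8. The mean of the control siRNA was nearer to no.2 at 19 of the 30 (63.3%) and at 107 of the 131 (81.7%), against 58.6% of all probe sets tested, so the higher set was close to that share. A single array that misread a probe set would give the same picture, so the error of 1 array and an effect of the siRNA cannot be told apart. In a limma fit to all 9 arrays, which takes the spread of the single array from the groups of 2, 0 probe sets (0%) passed an adjusted p of 0.05. That fit had no term for replicate number, so a difference shared by the replicate 1 or replicate 2 arrays stays in its standard errors. Their median was 0.399, and 0.36 in a fit with such a term and the unnumbered siRNA put with replicate 1. The lack of calls therefore does not show that the siRNAs are alike. Conversely, all 3 arrays lay within 1.5-fold of each other at 9801 probe sets (63.0%).

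The brightest gene among those higher with the unnumbered siRNA was DGKZ, a kinase that turns diacylglycerol into phosphatidic acid. Its signal was 5316 with the unnumbered siRNA and 2177 and 2129 with no.2, a log2 difference of 1.29 (SE 0.31). The 6 arrays without an EZH2 siRNA read 1141 to 2312, so the unnumbered siRNA stood alone above all of them. HNRNPUL2, a nuclear RNA-binding protein, had the same form, with 671 against 301 and 218 (log2 1.30, SE 0.36) and 132 to 294 on the other arrays. CSTA, an inhibitor of cysteine proteases, read 324 against 127 and 92.5 (log2 1.38, SE 0.61), and 46.1 to 206 elsewhere. These 3 genes were highest of all 9 arrays with the unnumbered siRNA.

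The other 2 genes of this group did not stand apart from the control siRNA. TMEM50A, a membrane protein, read 1389 with the unnumbered siRNA against 678 and 266 with no.2 (log2 1.64, SE 0.47, with 1.01 against replicate 1 and 2.28 against replicate 2). The control siRNA gave 1163 and 1768, so the no.2 arrays were the low ones. MT1HL1, a metallothionein gene, read 2967 against 1362 and 1127 (log2 1.24, SE 0.82). Its control siRNA replicates lay at 3401 and 1056, on both sides of the unnumbered siRNA. Each of the 5 genes rests on 1 probe set.

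Among the lower genes the widest gap was at PLEKHO2, a protein with a pleckstrin homology domain. Its signal was 50.9 with the unnumbered siRNA and 399 and 358 with no.2, a log2 difference of −2.41 (SE 0.50). On the 6 arrays without an EZH2 siRNA it was 156 to 403. EFNB3, the ephrin-B3 ligand of Eph receptors, read 100.3 against 359 and 402 (log2 −1.69, SE 0.35), and 336 to 615 elsewhere. EIF5A, the hypusinated translation factor, was the brightest, at 1302 against 3794 and 2804 (log2 −1.31, SE 0.47). In these genes the unnumbered siRNA was the lowest of the 9 arrays.

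Both transcription factors of the group also had their lowest signal there. USF2, which binds E-boxes, read 103 against 657 and 297 (log2 −1.87, SE 0.65, with −2.41 against replicate 1 and −1.33 against replicate 2). CREB3L1, which is held in the endoplasmic reticulum until cleaved, read 111 against 296 and 417 (log2 −1.47, SE 0.43). The remaining genes were CHN1, a Rac GTPase-activating protein, at 153 against 343 and 561 (log2 −1.38, SE 0.48), and BGN, the matrix proteoglycan biglycan, at 309 against 645 and 725 (log2 −1.08, SE 0.36). At all 7 genes the unnumbered siRNA was below all 8 other arrays, with the nearest of them at 343 for BGN, 185 for CHN1 and 138 for CREB3L1.

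**Figure D2:**
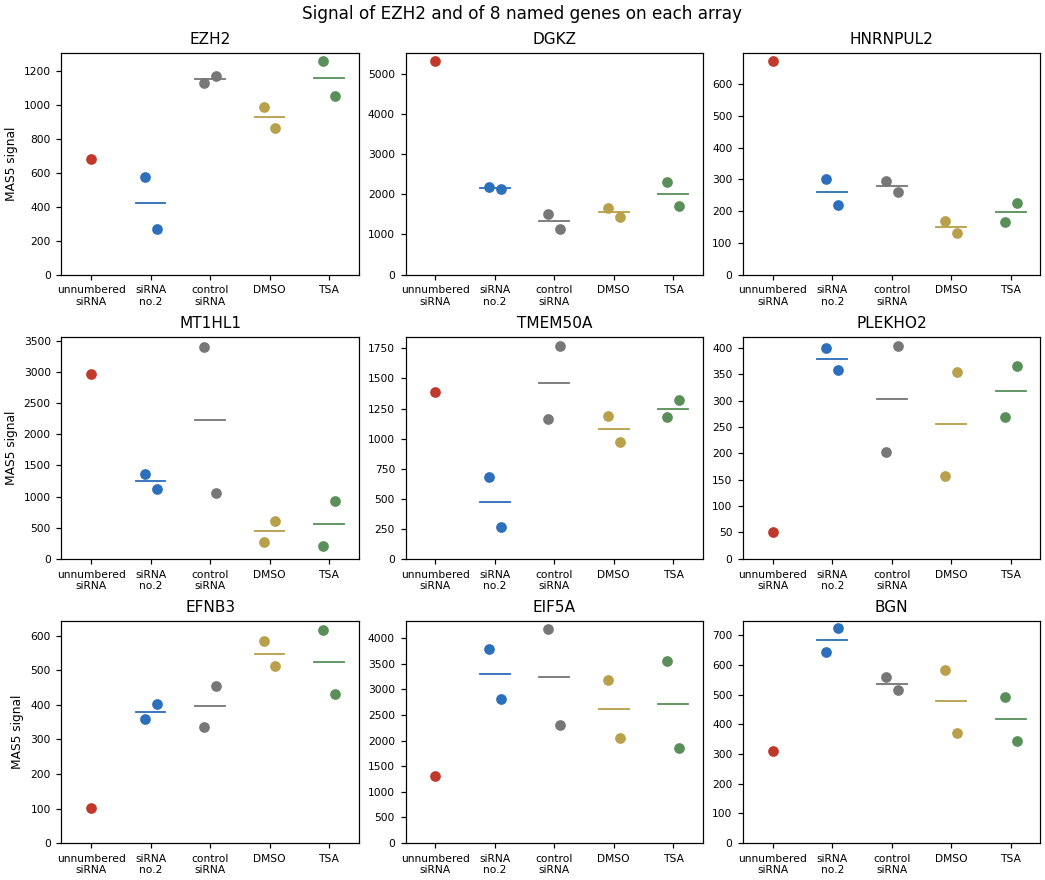
MAS5 signal (y axis, linear) of EZH2 and 8 named genes on each of the 9 arrays, by group on the x axis. Points are single arrays and lines are means of 2. For DGKZ and HNRNPUL2 the unnumbered EZH2 siRNA lies above the other 8 arrays and for PLEKHO2, EFNB3, EIF5A and BGN below them, while for MT1HL1 and TMEM50A it lies within the range of the control siRNA.

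Other probe sets of the same gene repeated these differences only in part. The 21 higher probe sets that name 1 gene had 18 further probe sets of their genes past the filter, of which 12 differed in the same direction and 3 (16.7%) by at least 1.5-fold. The 111 lower ones had 102, of which 62 differed in the same direction and 17 (16.7%) by at least 1.5-fold. Between single arrays, which is another measure, the share of further probe sets at least 1.5-fold apart in the same direction was 8.06% and 13.3% where a probe set was at least 2-fold higher or lower than on no.2 replicate 1, 31.4% and 31.0% against replicate 2, and 27.0% and 24.3% between the no.2 replicates. The share against replicate 1 was thus below that of the replicate pair and the share against replicate 2 above it. EFNB3 was among the genes not repeated, since its second probe set read 180 against 153 and 225 (log2 −0.04). The USF2 probe sets other than the one named differed by −0.32 and −0.20, and the second one of CREB3L1 by −0.49. EHD1, an ATPase of endocytic recycling, was the only gene with 2 probe sets at least 2-fold from both no.2 arrays: they read 57.6 against 166 and 154 (log2 −1.17, SE 0.41) and 339 against 708 and 729 (−1.03), while its other probe sets differed by −0.90, −0.44 and 0.22.

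A stricter view, chosen after the values were seen, asked for genes with all of 2 or more probe sets at least 1.5-fold beyond both no.2 arrays. Of 3029 genes with 2 or more probe sets, 3 met this in the upward direction (0.099%) and 3 in the downward direction (0.099%). PPP3R1, the regulatory subunit of the phosphatase calcineurin, read 365 against 188 and 134 on one probe set (log2 1.08, SE 0.41) and 328 against 149 and 146 on the other (log2 1.03, SE 0.34). The control siRNA gave 202 and 135, and 174 and 159, so the unnumbered siRNA was above both on each probe set. ATF6B, a transcription factor of the endoplasmic reticulum stress response, read 479 against 291 and 268 (log2 0.73, SE 0.34) and 139 against 45.7 and 75.7 (log2 0.95, SE 0.52). CLN8, a membrane protein of the endoplasmic reticulum, read 331 against 198 and 180 (log2 0.73, SE 0.36) and 85.8 against 44.2 and 25.3 (log2 0.91, SE 0.63). The control siRNA gave 218 and 182, and 55.6 and 35.3, for ATF6B, below the unnumbered siRNA on each probe set. For CLN8 it gave 174 and 258, and 57.6 and 91.2, so on the dimmer probe set the unnumbered siRNA lay between the control siRNA arrays.

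The downward genes were BGN, EIF5A and H2BC5. BGN differed by −1.08, −0.87 and −0.78 on its 3 probe sets, and its dimmest probe set read 222 with the unnumbered siRNA and 221 and 236 with the control siRNA, against 382 and 414 with no.2. EIF5A differed by −1.31, −1.33 and −0.71, and its control siRNA signals were above the unnumbered siRNA on each. H2BC5, a histone H2B gene, differed by −0.66 and −0.89. On its brighter probe set the unnumbered siRNA (282) lay between the control siRNA arrays (579 and 218). On the other it was below both (89.1 against 347 and 124). EIF5A and H2BC5 have near-identical copies in the genome, so their signals may include those copies.

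Immediate early genes are switched on within minutes of growth factor signals, without new protein synthesis, and serum response factor drives several of them through CArG boxes. The list used here also took in feedback genes such as SPRY2 and DUSP4 and the AP-1 gene FOSL1, which this definition need not cover. Of 18 tested, 12 were below both no.2 arrays with the unnumbered siRNA and 2 above both, where over 9103 genes 31.5% were below both and 29.7% above both. Their median log2 difference was −0.24, with −0.16 against no.2 replicate 1 and −0.34 against replicate 2, beside −0.0016 over all genes. This is a count on 3 arrays, and 0 members were at least 2-fold from both no.2 arrays. The RefSeq promoter table (GRCh38.p14) held 13 of the 18. The 250 bases before the start are shown for the 2 genes that the naming rule took, SPRY2 and IER2, and for EGR1, the one of the 13 with a CArG box, which is in capitals (2 matches). Each reads 5′ to 3′ on the gene's strand.
EGR1, chr5:138465229-138465478, plus strand: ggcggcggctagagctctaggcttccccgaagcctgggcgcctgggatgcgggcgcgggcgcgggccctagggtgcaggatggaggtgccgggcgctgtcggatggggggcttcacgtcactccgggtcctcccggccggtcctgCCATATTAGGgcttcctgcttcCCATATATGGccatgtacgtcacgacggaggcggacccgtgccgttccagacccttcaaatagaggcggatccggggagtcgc
IER2, chr19:13150161-13150410, plus strand: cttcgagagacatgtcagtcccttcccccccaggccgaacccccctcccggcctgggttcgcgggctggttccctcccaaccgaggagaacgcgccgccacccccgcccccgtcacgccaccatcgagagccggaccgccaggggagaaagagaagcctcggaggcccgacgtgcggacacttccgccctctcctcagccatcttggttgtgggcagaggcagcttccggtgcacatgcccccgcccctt
SPRY2, chr13:80341127-80341376, minus strand: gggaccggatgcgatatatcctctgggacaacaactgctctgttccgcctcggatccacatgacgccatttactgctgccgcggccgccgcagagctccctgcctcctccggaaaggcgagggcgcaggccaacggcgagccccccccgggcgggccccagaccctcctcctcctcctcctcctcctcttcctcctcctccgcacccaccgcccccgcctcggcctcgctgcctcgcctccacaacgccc

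A CArG box, searched on both strands, was present in 1.16% of the 35116 RefSeq windows of this length. The CRE, the site of cAMP response element binding protein (TGACGTCA, both strands), was in 2 of the 13, DUSP1 and JUND, and in 1.65% of all windows. A match is a description of letters and not a site in use.

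SPRY2, a feedback inhibitor of receptor tyrosine kinase signalling, had the widest gap of the immediate early list. Its signal was 148 with the unnumbered siRNA and 289 and 359 with no.2 (log2 −0.86 against replicate 1 and −1.15 against replicate 2, SE 0.35 of the mean difference), against 205 and 248 with the control siRNA. The unnumbered siRNA was below all 4 of these arrays. IER2 read 2300 against 3367 and 3769 (log2 −0.63, SE 0.32), and its control siRNA signals of 2601 and 1647 lay on both sides. EGR1, a zinc finger transcription factor, read 387 against 435 and 1267 (log2 −0.91, SE 0.60), so its gap came largely from no.2 replicate 2. FOSL1, an AP-1 subunit, read 230 against 323 and 647 (log2 −0.92, SE 0.78), with −0.45 against replicate 1. DUSP4, a phosphatase that turns off MAP kinases, at 164 against 139 and 110, and JUN, at 560 against 485 and 534, were the members above both.

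**Figure D3:**
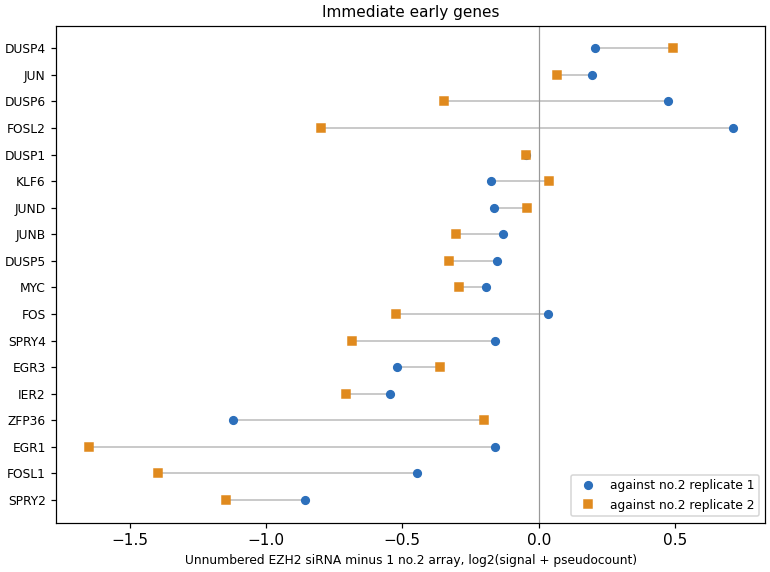
Log2 difference of the unnumbered EZH2 siRNA from no.2 replicate 1 (circles) and replicate 2 (squares) on the x axis, for each of 18 genes of the immediate early list on the y axis. Both points lie left of 0 for 12 genes and right of 0 for DUSP4 and JUN, and for EGR1 and FOSL1 the point against replicate 2 lies far to the left of the other.

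The EWS/FLI targets differed by small amounts. Of 21 genes that EWS/FLI is known to activate, 12 (57.1%) were above both no.2 arrays and 7 (33.3%) below both, beside 29.7% and 31.5% of all genes, with a median log2 difference of 0.19 (0.05 against replicate 1 and 0.15 against replicate 2). ID2, an inhibitor of basic helix-loop-helix factors, read 4552 against 2926 and 2990 (log2 0.62, SE 0.31), with 4163 and 4761 on the control siRNA arrays. The no.2 arrays were thus the low ones for ID2. JAK1, a cytokine receptor kinase, read 7027 against 5569 and 3869 (log2 0.60, SE 0.32). TERT, the catalytic subunit of telomerase, went the other way, at 30.8 against 122 and 68.6 (log2 −1.07, SE 0.41), and all 3 EZH2 siRNA arrays were below the control siRNA arrays (195 and 281).

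Of 20 genes that EWS/FLI is known to repress, 10 were below both no.2 arrays and 4 above both, beside 31.5% and 29.7% of all genes. Their median log2 difference was −0.17, but it was 0.0028 against replicate 1 and −0.49 against replicate 2, so it rests on replicate 2. CCN2, a matricellular growth factor, read 190 against 344 and 459 (log2 −0.98, SE 0.48). CDKN1A, the cell cycle inhibitor p21, read 497 against 724 and 855 (log2 −0.64, SE 0.35), and TGFBR2, a TGF-beta receptor, 723 against 1039 and 1094 (log2 −0.55, SE 0.36). Both no.2 arrays were above the unnumbered siRNA for each of these 3 genes.

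Neural and glial genes are of interest because Ewing tumours carry neural features. Of 25 tested, 12 (48.0%) were above both no.2 arrays and 5 below both, beside 29.7% and 31.5% of all genes. The median log2 difference was 0.16, with 0.27 against replicate 1 and 0.19 against replicate 2. The neurofilament subunits and the related filament INA were among the higher ones. NEFM read 1735 against 903 and 657 (log2 1.15, SE 0.59), INA 768 against 424 and 376 (log2 0.90, SE 0.42) and NEFH 1105 against 889 and 500.4 (log2 0.71, SE 0.60). NEFL did not follow them, at 1128 between the no.2 arrays (859 and 1997). The control siRNA gave 773 and 272 for NEFM and 288 and 339 for INA, so the unnumbered siRNA was above those arrays too. The secretory granule genes SCG2 (715 against 384 and 463, log2 0.73, SE 0.48) and CHGA (219 against 98.9 and 148, log2 0.74, SE 0.55) were also higher. ELAVL4, a neuronal RNA-binding protein, read 38.7 against 88.6 and 162 (log2 −1.19, SE 0.55), and the microtubule-binding proteins MAPT and MAP1B differed by −0.55 and −0.58.

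**Figure D4:**
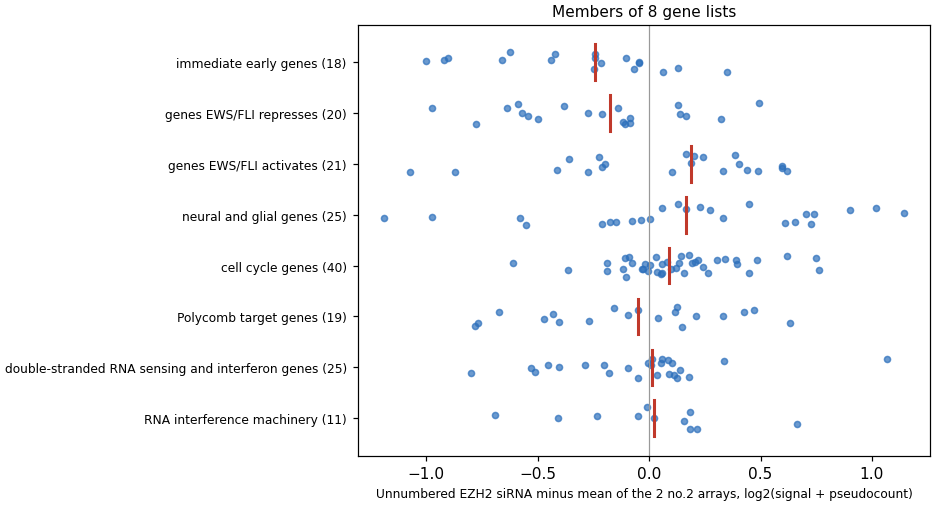
Log2 difference of the unnumbered EZH2 siRNA from the mean of the 2 no.2 arrays (x axis) for the tested members (points) of 8 gene lists (y axis, number of members in brackets), with the list median as a red line. The medians run from −0.24 for the immediate early genes to 0.19 for the genes that EWS/FLI activates, and the points of each list lie on both sides of 0.

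Cell cycle genes differed little. Of 40 tested, 14 (35.0%) were above both no.2 arrays and 5 (12.5%) below both, beside 29.7% and 31.5% of all genes, with a median log2 difference of 0.09 that was −0.0006 against replicate 1 and 0.24 against replicate 2. CCNE1, the cyclin of the start of DNA replication, read 250 against 117 and 159 (log2 0.76, SE 0.36). MCM6, a subunit of the replicative helicase, was bright and close between the no.2 arrays, at 6963 against 4706 and 4342 (log2 0.62, SE 0.26). PTTG1, the securin that inhibits separase until sister chromatids part, read 2341 against 2964 and 4333 (log2 −0.61, SE 0.36).

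The Polycomb genes other than EZH2 and their targets showed no shared direction. The median was 0.08 over 8 PRC2 genes (0.015 against replicate 1 and 0.15 against replicate 2) and 0.06 over 11 genes of Polycomb repressive complex 1 (0.20 and −0.013). Over 19 Polycomb target genes it was −0.05, with 0.05 against replicate 1 and −0.25 against replicate 2, and 8 (42.1%) were above both no.2 arrays and 8 (42.1%) below both, beside 29.7% and 31.5% of all genes. HOXD9 and HOXD10, homeobox genes of limb and trunk patterning, were the targets with the widest gap at each gene's brightest probe set, at 413 against 779 and 678 (log2 −0.78, SE 0.39) and 127 against 204 and 267 (log2 −0.77, SE 0.64). CBX6, a chromodomain subunit, read 2192 against 1684 and 735 (log2 0.96, SE 0.44), a gap that lay largely to replicate 2, and another CBX6 probe set differed by −0.02. PHC2, a polyhomeotic subunit, read 1340 against 2107 and 1886 (log2 −0.56, SE 0.33). A dimmer probe set of PAX3, a neural crest transcription factor among the targets, read 1.7 against 61.0 and 118 (log2 −2.05), while its brightest probe set differed by 0.12.

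Genes of double-stranded RNA sensing and of RNA interference were also compared. Over 25 genes of double-stranded RNA sensing and the interferon response the median was 0.01, with 0.10 against replicate 1 and −0.22 against replicate 2. Above both no.2 arrays were 6 (24.0%) and below both 8 (32.0%), close to the 29.7% and 31.5% of all genes. IRF9, the DNA-binding subunit of the interferon-activated complex ISGF3, read 123 against 203 and 267 (log2 −0.80, SE 0.34), and BST2, the antiviral tetherin, 96.6 against 13.1 and 63.3 (log2 1.07, SE 0.61). Over 11 genes of the RNA interference machinery the median was 0.02 (0.03 against replicate 1 and 0.16 against replicate 2). TSN, a subunit of the translin complex C3PO, read 2978 against 4127 and 3809 (log2 −0.41, SE 0.26), and AGO4, an Argonaute protein, 122 against 88.6 and 51.1 (log2 0.66, SE 0.58).

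Among the stress and metabolic lists the medians stayed close to that of all genes. They were −0.07 for p53 and apoptosis genes (25 tested), −0.07 for amino acid and unfolded protein stress genes (22), 0.03 for heat shock genes (13), −0.05 for hypoxia and glycolysis genes (24) and 0.0022 for sterol synthesis genes (17). Complex I subunits (28) and proteasome genes (26) had medians of 0.0046 and 0.03, adhesion and actin genes (24) −0.03, endothelial genes (7) 0.07 and housekeeping genes (10) 0.02. Against replicate 1 and replicate 2 apart, the signs differed for sterol synthesis genes (−0.15 and 0.11), complex I subunits (0.15 and −0.19), proteasome genes (0.12 and −0.12), adhesion and actin genes (0.04 and −0.10) and housekeeping genes (0.05 and −0.11). They were the same for p53 and apoptosis genes (−0.13 and −0.09), amino acid and unfolded protein stress genes (−0.02 and −0.24), heat shock genes (0.03 and 0.03), hypoxia and glycolysis genes (−0.0048 and −0.12) and endothelial genes (0.10 and 0.07). BCL2L1, which blocks apoptosis, read 468 against 689 and 959 (log2 −0.77, SE 0.54). Its other probe sets past the filter read 22.3 against 95.0 and 77.5 (log2 −1.23) and 236 against 323 and 139 (log2 0.13). CNN2, an actin-binding calponin, read 721 against 2102 and 1080 (log2 −1.04, SE 0.39). HPRT1, the purine salvage enzyme often used as a reference gene, read 2111 against 3342 and 3406 (log2 −0.67, SE 0.31), with 3690 and 3350 on the control siRNA arrays.

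The marker lists rested on few tested genes. The medians were 0.02 over 3 Ewing sarcoma markers, −0.15 over 4 fibroblast markers, 0.07 over 2 epithelial markers and −0.0007 over 4 blood cell markers. Against replicate 1 and replicate 2 apart they were −0.28 and −0.11 for Ewing sarcoma, −0.46 and 0.21 for fibroblast, 0.08 and 0.06 for epithelial and 0.24 and −0.19 for blood cell markers.

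What both siRNAs share was described by setting the 3 EZH2 siRNA arrays against the control siRNA. At 118 probe sets (0.758%) all 3 were at least 1.5-fold above both control siRNA arrays, and at 44 (0.283%) at least 1.5-fold below both. Of these, 106 (89.8%) and 28 (63.6%) also lay within 1.5-fold of each other across the siRNAs, where 63.0% of all probe sets tested did, so the lower group was no more alike than probe sets in general. EMP1, NRP1 and GAP43 were singled out after their values were seen. SLC11A1, a metal ion transporter, read 345 with the unnumbered siRNA and 343 and 354 with no.2, against 120 and 133 with the control siRNA. Its other probe sets past the filter did not repeat this, at 75.5 against 137 and 199.7 (control siRNA 60.7 and 105.5) and at 254 against 173 and 200.5 (control siRNA 218 and 193). EMP1, an epithelial membrane protein, read 454 against 351 and 353, with 175 and 62.7 for the control siRNA. Its other probe set past the filter read 208 against 273 and 280, with 200.4 and 90.6 for the control siRNA. There the unnumbered siRNA was close to the higher control siRNA array and below both no.2 arrays. NRP1, a semaphorin and VEGF co-receptor, read 258 against 243 and 245, with 121 and 71.5. GAP43, a growth cone protein, read 329 against 373 and 377, with 173 and 175, and TSA gave 562 and 590.3. At the probe sets given first, all 3 EZH2 siRNA arrays were above both control siRNA arrays in each of these genes. In TSA, SLC11A1 read 199 and 382, EMP1 395 and 295.5 and NRP1 144 and 156. In DMSO, the solvent of TSA, SLC11A1 read 159.5 and 179 and EMP1 113 and 243. NRP1 read 157 and 133 there and GAP43 139 and 279.

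The upper group had a median signal of 175 over the 9 arrays, below the 343 of all probe sets tested, and the other genes named in it were dim. MYL3, a myosin light chain, read 111 against 114 and 174 (control siRNA 25.5 and 26.0), and PTGDR2, a prostaglandin D2 receptor, 112 against 97.7 and 106 (control siRNA 35.1 and 11.8). B3GNT3, a glycosyltransferase, read 84.9 against 88.9 and 86.6 (15.3 and 23.7), and LYVE1, a hyaluronan receptor, 69.7 against 80.3 and 95.9 (12.2 and 17.0). In DMSO the 2 arrays gave 25.6 and 85.3 for MYL3 and 39.2 and 114.8 for PTGDR2, a range that reached the EZH2 siRNA arrays or came near them. B3GNT3 read 61.6 and 35.9 in DMSO and 101.8 and 19.0 in TSA, and LYVE1 65.3 and 22.0 in DMSO and 82.5 and 40.9 in TSA. Another LYVE1 probe set, under the filter, read 4.0 against 5.4 and 5.4 (control siRNA 8.0 and 5.6).

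The lower group was brighter, with a median signal of 814. SUPT4H1, a transcription elongation factor, read 682 against 575 and 730, with 1302 and 1395 for the control siRNA. FKBP2, a prolyl isomerase of the endoplasmic reticulum, read 577 against 594 and 672, with 1235 and 1181. The complex I subunits NDUFS7 (562 against 514 and 507, control siRNA 1106 and 980) and NDUFB8 (2373 against 2801 and 3141, control siRNA 5168 and 6028) were in this group, as was the adenylate kinase AK6 (834 against 769 and 770, control siRNA 1391 and 1553). The EZH2 siRNA arrays lay below both control siRNA arrays in all 5, while another NDUFB8 probe set read 3247 against 2390 and 3637, with 3973 and 3384 for the control siRNA. The second SUPT4H1 probe set read 414 against 430 and 446, with 632 and 530. In TSA these genes also read below both control siRNA arrays. The signals were SUPT4H1 577 and 794, FKBP2 523 and 824, NDUFS7 657 and 754, NDUFB8 2375 and 3571 and AK6 505 and 1334. DMSO, the solvent of TSA, was also below both for SUPT4H1 (1167 and 957), FKBP2 (1017 and 1040), NDUFB8 (4124 and 4946) and AK6 (629 and 1296). For NDUFS7 it gave 1071 and 837. These counts share the 2 control siRNA arrays between both siRNAs, so a high or low control reading appears in each.

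**Figure D5:**
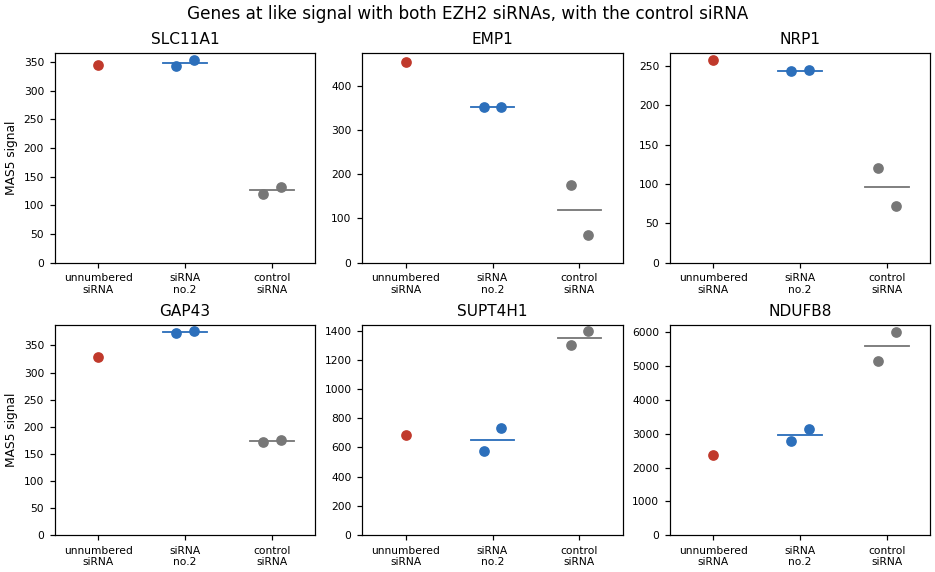
MAS5 signal (y axis, linear) of 6 genes at like level on the 3 EZH2 siRNA arrays, with the control siRNA arrays beside them. Points are single arrays and lines are means of 2. SLC11A1, EMP1, NRP1 and GAP43 lie above both control siRNA arrays and SUPT4H1 and NDUFB8 below both.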

How the data were processed

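The authors deposited 1 MAS5 signal intensity per probe set and array, per the submitters' processing notes; the MAS5 version and scaling are not given in the sources used here, but trimmed means over the 9 arrays lay between 500.1 and 500.2. Of 22283 probe sets 68 are controls, 19065 name 1 gene, 1043 several and 2107 none, and no gene was named from a probe set with several. Old symbols were updated through RefSeq (GRCh38.p14), which also gave the promoters.

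Signals were turned into log2(signal + 25.1), the pseudocount being the 20th percentile of all values, which understates differences of dim genes. Probe sets with a mean signal under 53.2 (30th percentile) were dropped, leaving 15558, and each gene in a list was read at its brightest probe set (9103 genes). Standard errors and p-values came from limma 3.58.1 in R 4.3.3 (group means over 9 arrays, eBayes with trend, Benjamini-Hochberg, 4 residual and 6.74 prior degrees of freedom). The fit was also run on simulated data with independent noise on each array. That setting held no difference shared by replicate number, so it cannot show how the fit behaves with one. Python 3.11.15, numpy 2.4.6 and pandas 2.3.3 did the rest. The number of arrays limits the precision.

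Genes were named by rule: EZH2; up to 12 each way at least 2-fold from both no.2 arrays with a signal on the higher side of at least 255 (60th percentile), ranked by the gap to the nearer no.2 array; up to 5 each way with 2 such probe sets; up to 5 each way shared by both siRNAs; and from each of 24 gene lists the members 2-fold apart or else the 2 with the widest gap. Other members were added from the lists as examples. The comparison, the lists and the rule were chosen with earlier results of these data known. The alternatives were other pseudocounts, filters, normalizations, thresholds and limma settings, and each no.2 array left out. A block for replicate number, prompted by the hybridisation controls, and a restriction to bright probe sets were chosen after seeing the data. In that block the unnumbered siRNA was put with the replicate 1 arrays.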

Additional observations from a re-analysis of the deposited data

How the results depend on the processing

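The counts of probe sets at least 2-fold from both no.2 arrays (30 higher, 131 lower) moved with most choices, and the lower group stayed the larger under every alternative run. The higher and lower counts were 56 and 250 with the pseudocount at the 5th percentile (5.42), 6 and 11 at the 40th (87.2), 10 and 26 with the filter at the 50th percentile, 2 and 17 at 3-fold, 248 and 517 at 1.5-fold, 126 and 300 from the mean of the no.2 arrays, and 13 and 63 with 1 probe set per gene. With no filter the higher count was 122. On probe sets with a mean signal of at least the 60th percentile, added after the data had been seen, they were 6 and 9. Leaving out 1 no.2 array gave 230 to 391 higher and 274 to 643 lower, the smaller ones without replicate 2. Quantile normalization and scaling each array to the same median left both within 1.5 times. limma called no probe set under any of the 11 alternatives. The EZH2 difference ran from 0.24 without replicate 2 to 1.26 without replicate 1 and was 0.57 with the block for replicate number. Of the 71 other named genes 7 changed sign under some alternative, as did 15 of 24 list medians; the cause was not tested. The immediate early median stayed between −0.34 and −0.16. EZH2 has no other probe set past the filter, so that alternative was not run. No paired analysis was possible because the unnumbered siRNA has 1 array with no replicate number. The dim probe sets that make up most of both groups limit what these counts show.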

Other observations

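Metallothioneins bind zinc and copper and respond to metal levels. The family was looked at because MT1HL1 was named by the rule, and so was chosen after values were seen. MT1HL1, MT2A, MT1X, MT1G and MT1H read higher with the unnumbered siRNA than on both no.2 arrays at their brightest probe sets. Of all genes 29.7% did so, and the family was not tested against that share. MT2A read 6120 against 4220 and 3759 (log2 0.62, SE 0.48), MT1X 2554 against 1955 and 1430 (log2 0.60, SE 0.61), MT1G 2101 against 1604 and 920 (log2 0.78, SE 0.58) and MT1H 1795 against 1584 and 950 (log2 0.54, SE 0.69). At its brightest probe set MT1F was level with replicate 1, at 966 against 961 and 516 (0.0073 and 0.87 on the log2 scale). Another MT1F probe set read 1229 against 974 and 625 (0.33 and 0.95). A dim MT1G probe set, under the filter, went the other way, at 27.5 against 54.6 and 85.2 (log2 −0.84). MT1E lay between the no.2 arrays at its brightest probe set (1435 against 1611 and 796) and above both at another (956 against 668 and 626, log2 0.55). MT3 read 128 against 131 and 138. The control siRNA replicates differed by more than the siRNAs did, at 8191 and 3185 for MT2A and 4254 and 1490 for MT1X. The DMSO and TSA arrays were lower, at 1506 to 2523 for MT2A. These genes are near-identical in sequence, so their probe sets can read one another.

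The widest upward gap of any probe set was at TMLHE, the first enzyme of carnitine synthesis, which was too dim for the naming rule and was singled out after its value was seen. It read 175 with the unnumbered siRNA and 16.3 and 20.1 with no.2, a log2 difference of 2.21, and the control siRNA arrays gave 52.7 and 93.2.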
